A study of Mus musculus with 18 samples.

Results

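Mouse astrocytes kept without neurons were compared between day 7 and day 4 after their move to serum-free N2 medium, as 3 libraries at each day. Libraries were chosen by their labels as the day 4 and day 7 cultures of astrocytes alone, and were paired by replicate number, so that 6 of the 18 libraries of the series and 3 pairs entered the comparison. No gene passed the edgeR test for a difference between the days (0% of 17092 tested genes), and DESeq2, run as an alternative, called 12. The results below are therefore levels, fitted differences with their errors, and counts over gene lists, given beside the same counts over all genes tested.

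Astrocytes are the glial cells that take up neurotransmitter, buffer potassium, store glycogen, make cholesterol and lipoproteins for neurons and lay down extracellular matrix. In culture they are usually expanded in serum, which drives division and a reactive, matrix-producing state, and serum-free N2 medium supplies insulin, transferrin, progesterone, putrescine and selenium in its place. Cells without an outside lipid supply make sterols and fatty acids through enzymes whose genes are switched on by the SREBP transcription factors.

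All groups began as cortical astrocytes of newborn mice, cultured for about 2 weeks, expanded in DMEM with fetal bovine serum and moved to N2 medium at confluence. The astrocytes compared here received no treatment and were collected 4 or 7 days later. A second kind of culture, used for comparison, had TdTomato-positive hippocampal neurons of newborn mice plated onto the astrocytes for the same days. All cells were detached with TrypLE and passed through a sorter, where the astrocytes alone set the gate for cells without TdTomato. The sources used here give neither strain, sex nor the number of animals, and the labels give libraries of the same replicate number the same date. Whether the 3 numbers stand for different animals is not stated, and the p-values then rest on a spread between cultures that may be technical. As in any bulk sample, fewer cells of a type and less RNA per cell cannot be told apart.

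The 6 libraries held 13950111 to 31226925 reads assigned to genes, and 17569 to 18487 genes had at least 1 read. The mitochondrial ribosomal RNA mt-Rnr2 took 10.8%, 11.1% and 16.5% of the reads at day 4 and 17.3%, 16.7% and 18.4% at day 7, higher at day 7 in 3 of 3 pairs. Levels are given in replicate order 1 to 3 as TMM-scaled CPM, read counts set relative to the library's size, where 3 reads correspond to 0.104 to 0.216 CPM and lie at the floor, for counting error only. Fold changes are log2 of day 7 over day 4 from the fit, over n = 3 pairs. The standard error (SE) is the size of the fold change over the square root of the F statistic of its test. The spread behind it was estimated from 16 libraries of the series. Pair values are log2 differences with a prior count of 2, and the fitted value of a gene is not their mean, because the fit weights libraries by their counts. The 30 astrocyte identity genes summed to 10334 to 16859 CPM at day 4 and 10890.4 to 18803 CPM at day 7, and each had reads in at least 1 of the 6 libraries.

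The edgeR quasi-likelihood test found no gene at a Benjamini-Hochberg adjusted p under 0.05, and the smallest adjusted p was 0.459, for Vcan. At an unadjusted p under 0.05 there were 347 genes, 215 higher (1.26% of those tested) and 132 lower (0.772%). Across all tested genes 9010 were fitted higher at day 7 (52.7%) and 8082 lower (47.3%), with a median of 0.03. The direction was higher in 3 of 3 pairs for 2042 genes (11.9%) and lower in 3 of 3 pairs for 1680 (9.83%). DESeq2 on the same libraries called 12 genes, limma-voom called 0 and had 910 genes at an unadjusted p under 0.05. Among the 12 were Vcan, Anxa1, Sema3c, Pla2g7 and Scd2, described below, and the other 7 had at most 26 reads in any of the 6 libraries.

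Among genes lower at day 7, the smallest p-values belonged to Vcan, Sema3c and Anxa1. Vcan, the matrix proteoglycan versican, stood at 109, 110.0 and 103 CPM at day 4 and 38.0, 56.8 and 19.7 CPM at day 7. Sema3c, a secreted semaphorin that guides axons and migrating cells, stood at 188, 303 and 177 CPM at day 4 and 120.0, 114 and 80.7 CPM at day 7. Anxa1, a phospholipid-binding protein with anti-inflammatory activity, stood at 43.8, 50.5 and 26.4 CPM at day 4 and 16.4, 22.2 and 15.9 CPM at day 7. In these 3 genes every day 7 library lay below every day 4 library. The fitted log2 fold changes were -1.63 (SE 0.28) for Vcan, -1.05 (SE 0.22) for Sema3c and -1.10 (SE 0.23) for Anxa1, with adjusted p of 0.459, 1 and 1 in edgeR. Lack of overlap in the lower direction was seen for 3.16% of all tested genes and in the higher direction for 3.67%.

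Angpt1, the ligand that activates the Tie2 receptor, stood at 23.5, 52.4 and 31.4 CPM at day 4 and 7.57, 29.0 and 9.59 CPM at day 7, a log2 fold change of -1.37 (SE 0.36). Its day 7 library of replicate 2 lay above 1 of the day 4 libraries, so the groups overlapped although all 3 pairs were lower. Bmp1, the protease that trims procollagens, stood at 201, 209 and 90.5 CPM at day 4 and 69.9, 98.8 and 79.9 CPM at day 7, a log2 fold change of -0.90 (SE 0.27). Replicate 3 moved least for Bmp1, with pair differences of -1.52, -1.08 and -0.18. Sned1, a glycoprotein of the matrix, stood at 38.6, 45.6 and 16.6 CPM at day 4 and 9.73, 24.1 and 8.56 CPM at day 7, a log2 fold change of -1.35 (SE 0.44). Itga1, the collagen-binding integrin subunit, stood at 464, 331 and 184 CPM at day 4 and 129, 285 and 91.3 CPM at day 7, a log2 fold change of -0.97 (SE 0.34). Both were lowest at day 7 in replicate 3 and overlapped between the days.

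The remaining genes of this set were of mixed function. Top2a, the topoisomerase of dividing cells, stood at 14.9, 50.9 and 26.7 CPM at day 4 and 4.54, 30.1 and 4.66 CPM at day 7, a log2 fold change of -1.53 (SE 0.46). Tmtc3, an enzyme that adds mannose to cadherins, stood at 187, 148 and 120.4 CPM at day 4 and 87.2, 136 and 46.5 CPM at day 7, a log2 fold change of -0.84 (SE 0.28). Atoh8, a basic helix-loop-helix transcription factor, stood at 51.0, 58.4 and 17.7 CPM at day 4 and 20.2, 31.7 and 17.6 CPM at day 7, a log2 fold change of -0.76 (SE 0.26). In replicate 3 Atoh8 was close to level, and the larger differences were those of replicates 1 and 2. Thsd1, a membrane protein with a thrombospondin domain, stood at 10.2, 18.2 and 9.31 CPM at day 4 and 3.68, 6.13 and 8.18 CPM at day 7, a log2 fold change of -1.07 (SE 0.38). Lrrc9 stood at 36.4, 23.9 and 47.6 CPM at day 4 and 18.8, 17.2 and 17.7 CPM at day 7, a log2 fold change of -0.94 (SE 0.33). For Thsd1 and Lrrc9 the days did not overlap, which makes 5 of the 12 lower genes, and the adjusted p was 1 in edgeR for 11 of the 12.

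Among the 12 genes higher at day 7, 4 act on lipids or their supply. Pla2g7, the phospholipase that degrades platelet-activating factor, stood at 57.3, 139 and 524 CPM at day 4 and 254, 288 and 1056 CPM at day 7, a log2 fold change of 1.35 (SE 0.30). Scd2, a stearoyl-CoA desaturase that makes monounsaturated fatty acids, stood at 927, 1453 and 4313 CPM at day 4 and 2711, 2325 and 6413 CPM at day 7, a log2 fold change of 0.92 (SE 0.25). Replicate 3 was highest at both days for these 2 genes, so that the days overlapped although each pair was higher. Me1, the cytosolic malic enzyme that supplies NADPH for fatty acid synthesis, stood at 54.9, 58.1 and 105 CPM at day 4 and 113, 100.1 and 149 CPM at day 7, a log2 fold change of 0.77 (SE 0.20). Insig1, which holds the SREBP proteins in the endoplasmic reticulum and is itself an SREBP target, stood at 74.5, 65.8 and 242 CPM at day 4 and 139.7, 191 and 309 CPM at day 7, a log2 fold change of 0.99 (SE 0.27). The pair differences of Insig1 were 0.91, 1.54 and 0.36, all of the same direction.

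Gpt2, the mitochondrial alanine aminotransferase, stood at 26.3, 24.0 and 57.4 CPM at day 4 and 54.2, 43.2 and 72.7 CPM at day 7, a log2 fold change of 0.75 (SE 0.23). Rida, a deaminase that clears reactive imines, stood at 50.7, 37.5 and 118 CPM at day 4 and 83.6, 97.6 and 153 CPM at day 7, a log2 fold change of 0.81 (SE 0.22). Both were highest in replicate 3 at each day and overlapped between the days. Ace, the angiotensin-converting enzyme, stood at 6.91, 3.26 and 22.6 CPM at day 4 and 16.7, 49.4 and 29.6 CPM at day 7, a log2 fold change of 2.20 (SE 0.64). Aif1l, an actin-binding relative of Aif1, stood at 8.59, 4.00 and 35.8 CPM at day 4 and 15.9, 30.9 and 37.9 CPM at day 7, a log2 fold change of 1.54 (SE 0.48). For Ace and Aif1l the pair difference was largest in replicate 2, at 3.88 and 2.92 against 0.39 and 0.08 in replicate 3.

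The last 4 showed no overlap between the days, the only ones of the 12 higher genes to do so. Mrfap1 stood at 35.4, 75.4 and 59.4 CPM at day 4 and 91.9, 103 and 96.6 CPM at day 7, a log2 fold change of 0.82 (SE 0.23). Arl1, a small GTPase of the Golgi, stood at 16.7, 23.6 and 38.3 CPM at day 4 and 50.2, 40.5 and 57.3 CPM at day 7, a log2 fold change of 0.94 (SE 0.28). Norad, a long noncoding RNA that binds Pumilio proteins, stood at 107, 165 and 246 CPM at day 4 and 248, 249 and 355 CPM at day 7, a log2 fold change of 0.79 (SE 0.24). The margin for Norad was narrow, since the highest day 4 library and the lowest day 7 library nearly met. Irf2bp2, a transcriptional corepressor, stood at 76.2, 150.1 and 98.4 CPM at day 4 and 183, 184 and 167 CPM at day 7, a log2 fold change of 0.80 (SE 0.24). The adjusted p was 1 in edgeR for each of the 12.

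**Figure D1:**
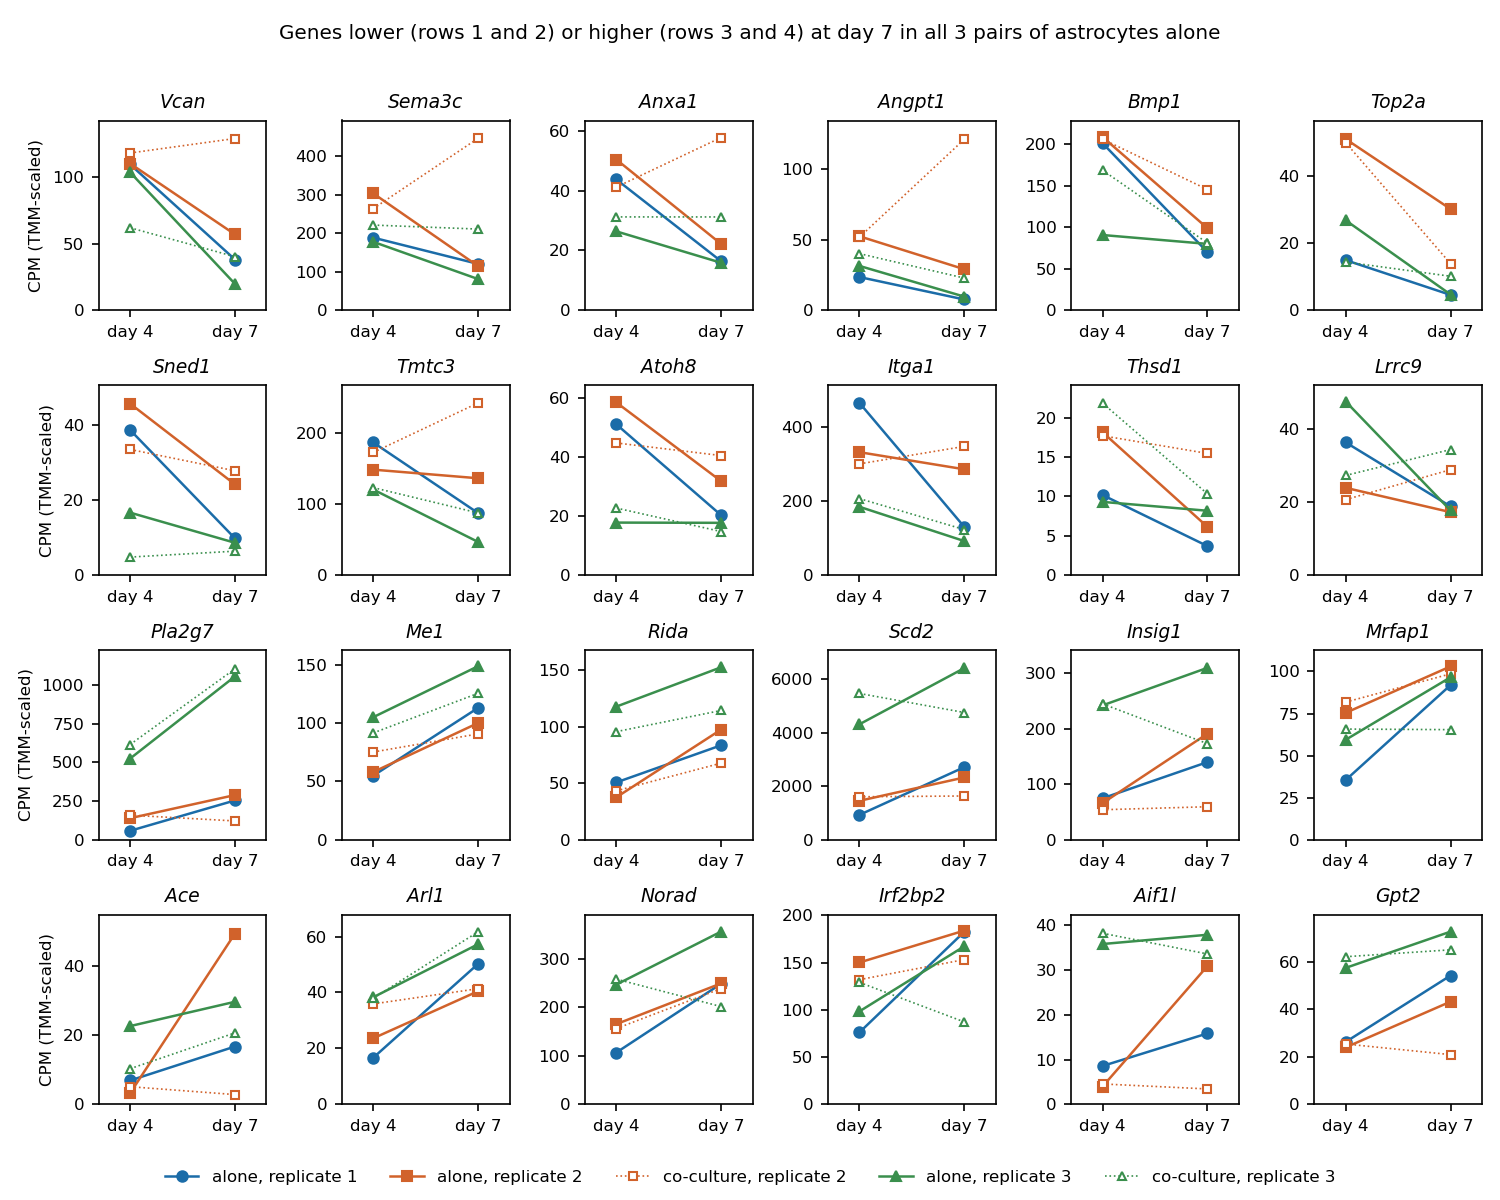
Level in TMM-scaled CPM (y axes from 0) at day 4 and day 7 for the 12 lower and 12 higher genes. Filled points and solid lines are astrocytes alone, coloured by replicate, and open points with dotted lines are co-cultured astrocytes of replicates 2 and 3. Every solid line falls in the upper 2 rows and climbs in the lower 2, by the choice of genes, while dotted lines go either way.

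The median of the genes of cholesterol synthesis and uptake stood higher at day 7 in each of the 3 pairs. Of 24 tested genes of this list, 23 were fitted higher, against 52.7% of all tested genes, and 12 were higher in 3 of 3 pairs, against 11.9%. The median was 0.34 overall and 0.40, 0.44 and 0.26 in the 3 pairs, against 0.03 over all genes, and no member passed the test. It was 0.29, 0.31 and 0.42 without replicates 1, 2 and 3 in turn. Srebf2, the transcription factor of the pathway, stood at 130.4, 204 and 178 CPM at day 4 and 220.0, 215 and 195 CPM at day 7. Sqle, squalene epoxidase, stood at 132, 140.3 and 172 CPM at day 4 and 155, 261 and 234 CPM at day 7, a log2 fold change of 0.57 (SE 0.27). Each was higher in 3 of 3 pairs and overlapped between the days. The sterol regulatory element, searched as TCAC, any base and CCAC in the 250 bases before each gene's start (RefSeq, build GRCm38.p6, both strands), was in 0 of 16 promoters of the list and 158 of 12433 promoters of all tested genes (1.27%), which says nothing of other spellings.

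Further members, chosen after their values were seen, had fitted differences of similar size. Cyp51, a sterol demethylase, stood at 72.7, 87.3 and 183 CPM at day 4 and 115, 178 and 185 CPM at day 7, a log2 fold change of 0.62 (SE 0.28). Fdps, the farnesyl diphosphate synthase, stood at 8.74, 12.5 and 9.93 CPM at day 4 and 12.2, 19.4 and 17.2 CPM at day 7, a log2 fold change of 0.64 (SE 0.35). Both were higher in 3 of 3 pairs and overlapped between the days. The member fitted lower was Ebp, a sterol isomerase, at 17.4, 16.1 and 13.3 CPM at day 4 and 12.5, 11.3 and 17.7 CPM at day 7. Hmgcs1, an early synthase of the pathway, was listed at 0 reads in all 6 libraries, although genes beside it in the pathway had many, and was not tested.

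Fatty acid synthesis followed the same direction with wider spread. Of 14 tested genes 12 were fitted higher and 6 were higher in 3 of 3 pairs, with a median of 0.37 and pair medians of 0.82, 0.19 and 0.21. Scd2 and Me1, described above, belong to this list. Scd1, the sister desaturase of Scd2, stood at 184, 335 and 1057 CPM at day 4 and 451, 536 and 1219 CPM at day 7, a log2 fold change of 0.73 (SE 0.26). Among members chosen after their values were seen, Elovl5, an elongase of polyunsaturated fatty acids, stood at 147, 113 and 219 CPM at day 4 and 154, 265 and 299.6 CPM at day 7, a log2 fold change of 0.65 (SE 0.28). Fasn, fatty acid synthase, stood at 255, 358 and 644 CPM at day 4 and 451, 442 and 715 CPM at day 7, a log2 fold change of 0.45 (SE 0.28). All 3 were higher in 3 of 3 pairs. The 2 members fitted lower were Thrsp, a regulator of lipogenesis, at 1.86, 9.73 and 11.8 CPM at day 4 and 1.15, 5.72 and 13.3 CPM at day 7, and Fads2, a fatty acid desaturase. Fads2 stood at 323, 701 and 554 CPM at day 4 and 457, 337 and 632 CPM at day 7, lower in replicate 2 only. Without replicate 1 the median of this list was 0.17. The 23 tested genes of lipid carriers and cholesterol efflux had a median of 0.16 with pair medians of 0.32, -0.29 and 0.08. Abca1, the cholesterol exporter, stood at 1764, 2025 and 2620.1 CPM at day 4 and 3265, 2069 and 1928 CPM at day 7. Lrp1, a lipoprotein receptor, stood at 1366, 2322 and 1914 CPM at day 4 and 1452, 1844 and 2006 CPM at day 7. Neither had the same direction in 3 pairs.

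Genes of the unfolded protein response and the integrated stress response were higher in replicate 1 by far and in the other pairs by little. These pathways answer misfolded protein in the endoplasmic reticulum and shortage of amino acids, the first through ATF6 and XBP1 and the second through ATF4. ATF6 and XBP1 act on chaperone promoters through the endoplasmic reticulum stress element, which reads CCAAT, any 9 bases and CCACG. Those letters were searched on both strands in the same windows. It was found in 4 of 28 promoters of the list (14.3%) and in 21 of 12433 promoters of all tested genes (0.169%), a description of these letters only. The 4 windows are shown because they carry the shared element of the chaperone group, written on the strand of the gene, with the match in capitals.
Hspa5, chr2:34772000-34772068, plus strand: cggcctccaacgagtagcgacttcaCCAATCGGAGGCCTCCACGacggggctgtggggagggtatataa
Hsp90b1, chr10:86705508-86705576, minus strand: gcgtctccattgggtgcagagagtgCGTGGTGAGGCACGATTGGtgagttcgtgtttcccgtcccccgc
Dnajc3, chr14:118937802-118937870, plus strand: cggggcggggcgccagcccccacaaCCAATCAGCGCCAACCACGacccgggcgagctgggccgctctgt
Calr, chr8:84847050-84847118, minus strand: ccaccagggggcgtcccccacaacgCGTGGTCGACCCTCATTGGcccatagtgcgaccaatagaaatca
Hspa5, Hsp90b1 and Calr encode chaperones of the endoplasmic reticulum, and Dnajc3 a co-chaperone that also restrains the kinase PERK. In Hspa5 and Dnajc3 the match reads along the gene, and in Hsp90b1 and Calr on the opposite strand, so that the capitals there are its reverse complement.

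Of the 29 tested genes of this list 28 were fitted higher, 15 in 3 of 3 pairs, with a median of 0.68, and no member passed the test. The pair medians were 1.62, 0.08 and 0.33, and 29, 17 and 25 of the 29 were higher in the 3 pairs. Without replicate 1, 20 of 29 were fitted higher and the median was 0.27. Hspa5, the chaperone BiP, stood at 407, 503 and 463 CPM at day 4 and 1895, 556 and 651 CPM at day 7, a log2 fold change of 1.10 (SE 0.37). Hsp90b1, the chaperone Grp94, stood at 706, 783 and 683 CPM at day 4 and 1140.0, 768 and 347 CPM at day 7. Hspa5 was thus higher in 3 of 3 pairs, whereas Hsp90b1 was higher in replicate 1, level in replicate 2 and lower in replicate 3. The 2 other genes with the element did not share a direction across pairs either. Calr, calreticulin, stood at 344, 502 and 257 CPM at day 4 and 776, 316 and 310.3 CPM at day 7. Dnajc3 stood at 125, 156 and 240.4 CPM at day 4 and 271, 203 and 143 CPM at day 7. Calr was lower in replicate 2 and Dnajc3 in replicate 3.

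Further members were chosen after their values were seen. Herpud1, which serves the degradation of misfolded proteins, stood at 32.9, 50.5 and 41.6 CPM at day 4 and 120.1, 51.0 and 62.3 CPM at day 7, a log2 fold change of 0.85 (SE 0.31). Dnajb9, a co-chaperone of BiP, stood at 46.2, 46.0 and 73.2 CPM at day 4 and 152, 68.5 and 75.2 CPM at day 7, a log2 fold change of 0.81 (SE 0.30). Xbp1, a transcription factor of the response, stood at 30.3, 30.1 and 20.4 CPM at day 4 and 72.4, 33.4 and 32.6 CPM at day 7, a log2 fold change of 0.68 (SE 0.34). Each was higher in 3 of 3 pairs, and the day 7 library of replicate 1 was the highest of the 6. The same library was highest for genes of the integrated stress response. Slc7a5, the large neutral amino acid transporter, stood at 43.0, 32.0 and 83.4 CPM at day 4 and 269.5, 73.9 and 105 CPM at day 7, a log2 fold change of 1.43 (SE 0.54). Atf5, a transcription factor of mitochondrial stress, stood at 45.7, 37.7 and 76.4 CPM at day 4 and 345, 57.3 and 81.3 CPM at day 7, a log2 fold change of 1.44 (SE 0.62). Ddit3, which encodes CHOP, stood at 19.7, 18.4 and 14.4 CPM at day 4 and 60.8, 27.1 and 22.8 CPM at day 7, a log2 fold change of 1.04 (SE 0.46). For Ddit3 all day 7 libraries lay above all day 4 libraries.

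Antioxidant genes stood higher mainly in replicates 1 and 3. Of 24 tested genes of the Nrf2 and glutathione list 22 were fitted higher, 8 in 3 of 3 pairs, with a median of 0.41 and pair medians of 0.45, 0.02 and 0.56. Without replicate 3 the median was 0.12. Prdx6, a peroxiredoxin that has a near-identical copy in the mouse genome so that its counts are uncertain, stood at 1229, 1200.2 and 2295 CPM at day 4 and 1856, 1437 and 3364 CPM at day 7, a log2 fold change of 0.45 (SE 0.27). Txnrd1, thioredoxin reductase, stood at 546, 543 and 354 CPM at day 4 and 591, 578 and 707 CPM at day 7. Gclm, the regulatory subunit of the enzyme that starts glutathione synthesis, stood at 45.9, 60.2 and 80.7 CPM at day 4 and 75.3, 88.3 and 117 CPM at day 7, a log2 fold change of 0.59 (SE 0.23), and was chosen after its values were seen. All 3 were higher in 3 of 3 pairs. Selenoproteins, which need the selenium that N2 medium supplies, had 13 of 17 fitted higher, 6 in 3 of 3 pairs, with a median of 0.19 and pair medians of 0.07, 0.10 and 0.53. Beside Txnrd1, Selenof, a protein of the endoplasmic reticulum, stood at 157, 256 and 241 CPM at day 4 and 226, 295 and 364 CPM at day 7, a log2 fold change of 0.44 (SE 0.25). Selenok, also of the endoplasmic reticulum and chosen after its values were seen, stood at 14.7, 20.7 and 29.7 CPM at day 4 and 21.6, 25.6 and 54.0 CPM at day 7, a log2 fold change of 0.58 (SE 0.27). Both selenoproteins were higher in 3 of 3 pairs and overlapped between the days. The iron list had 8 of 15 fitted higher, a median of 0.01 and pair medians of -0.06, -0.44 and 0.30. Cp, the copper-carrying ferroxidase ceruloplasmin, stood at 1958, 5233 and 2802 CPM at day 4 and 2063, 1857 and 1023 CPM at day 7. Fth1, ferritin heavy chain, stood at 168, 675 and 259 CPM at day 4 and 387, 419 and 439 CPM at day 7. Cp was lower in replicates 2 and 3 and close to level in replicate 1, with a log2 fold change of -0.92 (SE 0.35). Fth1 was lower in replicate 2 and higher in replicates 1 and 3.

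The median of the cell cycle genes stood lower at day 7 in each of the 3 pairs. Of 36 tested genes 31 were fitted lower, against 47.3% of all tested genes, and 19 were lower in 3 of 3 pairs, against 9.83%. The median was -0.55 and the pair medians -0.78, -0.53 and -0.23, and no member passed the test. The fitted median was -0.45, -0.48 and -0.79 without replicates 1, 2 and 3 in turn. Of the 2 members named for their level, Ccnd1 had no common direction and Rrm1 was fitted lower. Ccnd1, cyclin D1, stood at 4856, 1813 and 636 CPM at day 4 and 2738, 2312 and 1597 CPM at day 7. Rrm1, the large subunit of ribonucleotide reductase, stood at 21.0, 45.5 and 36.8 CPM at day 4 and 19.0, 29.8 and 36.8 CPM at day 7. Ccnd1 was lower in replicate 1 and higher in replicates 2 and 3, and Rrm1 was level in replicate 3. Among mitotic genes chosen after their values were seen, Bub1, a kinase of the spindle checkpoint, stood at 6.27, 6.68 and 3.38 CPM at day 4 and 0, 4.58 and 0.725 CPM at day 7. Kif11, a spindle motor, stood at 4.41, 11.5 and 14.3 CPM at day 4 and 1.59, 10.4 and 4.04 CPM at day 7. Both, like Top2a above, were lower in 3 of 3 pairs. Mki67, the usual marker of dividing cells, stood at 14.2 and 23.6 CPM at day 4 and 1.01 and 2.55 CPM at day 7 in replicates 1 and 3. It had no read in either library of replicate 2, where Top2a and Bub1 had reads. In RefSeq gene order Mki67 lies in a run of 4 neighbouring genes with no read in 8 of the 18 libraries. Pcna, the sliding clamp of replication, was the member higher in 3 of 3 pairs, at 6.61, 9.81 and 8.35 CPM at day 4 and 8.94, 10.1 and 12.9 CPM at day 7.

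The median of the fibrous matrix genes was also below 0 in each pair. Of 31 tested collagens, laminins and related genes 23 were fitted lower and 10 were lower in 3 of 3 pairs, with a median of -0.30 and pair medians of -0.84, -0.48 and -0.27, and no member passed the test. The fitted median was -0.39, -0.52 and -0.49 without replicates 1, 2 and 3 in turn, and -0.46 without the replicate block. Sparc, a collagen-binding glycoprotein, went against the list, at 1704, 2445 and 2068 CPM at day 4 and 1847, 2715 and 3444 CPM at day 7, higher in 3 of 3 pairs. Col5a2, a fibril-starting collagen, stood at 924, 796 and 381 CPM at day 4 and 392, 767 and 439 CPM at day 7, lower in replicates 1 and 2 only. Of members chosen after their values were seen, Fn1, fibronectin, stood at 594, 827 and 523 CPM at day 4 and 273, 409 and 409.7 CPM at day 7, a log2 fold change of -0.81 (SE 0.30). Col12a1, a fibril-associated collagen, stood at 194, 300.2 and 176 CPM at day 4 and 113, 157 and 147 CPM at day 7, a log2 fold change of -0.65 (SE 0.25). Neither overlapped between the days. Col3a1, a fibrillar collagen that is also a marker of fibroblasts, stood at 4.25, 20.4 and 72.2 CPM at day 4 and 1.23, 6.67 and 33.0 CPM at day 7, a log2 fold change of -1.44 (SE 0.52). The 20 fibroblast and meninges markers, of which Slc22a6 had no read, summed to 324, 454 and 582 CPM at day 4 and 253, 527 and 327 CPM at day 7, and 12 of their 17 tested members were fitted lower, with a median of -0.27 (-0.84 without the replicate block). The part of fibroblasts in the lower matrix genes was not tested. Their named members were Ogn, a small matrix proteoglycan, at 56.5 to 261 CPM over the 6 libraries, and Islr, at 90.2 to 179.9 CPM.

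Matrix proteases and their inhibitors had 17 of 27 tested genes fitted lower, 6 in 3 of 3 pairs, with a median of -0.28 and pair medians of -0.36, -0.43 and -0.15. Without replicate 2 the median was 0.01. Timp3, an inhibitor bound to the matrix, stood at 987, 2038 and 1840.3 CPM at day 4 and 1653, 1702 and 2348 CPM at day 7. Timp2, a secreted inhibitor, stood at 616, 1182 and 666 CPM at day 4 and 756, 760.5 and 979 CPM at day 7. Each was lower in replicate 2 and higher in the others. Mmp2, a gelatinase chosen after its values were seen, stood at 17.7, 20.8 and 19.0 CPM at day 4 and 11.0, 7.94 and 14.6 CPM at day 7, a log2 fold change of -0.74 (SE 0.41). Lecticans, tenascins and synapse-forming factors, a list that holds Vcan and Sparc, had 8 of 16 fitted higher, a median of 0.05 and pair medians of -0.17, 0.29 and -0.31. Thbs1, a thrombospondin that promotes synapses, stood at 3478, 3515 and 850.0 CPM at day 4 and 2009.8, 2102 and 1576 CPM at day 7, lower in replicates 1 and 2 and higher in replicate 3.

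**Figure D2:**
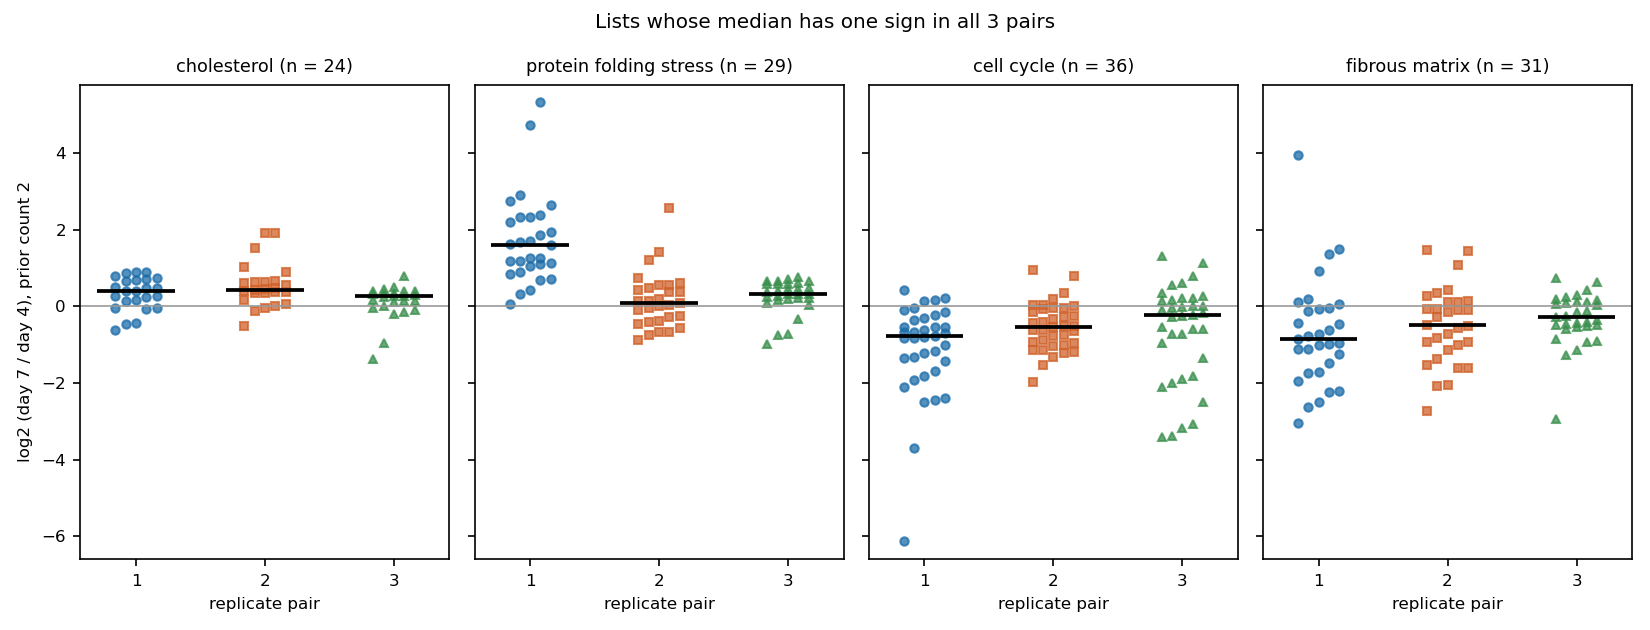
Pair differences in log2 (day 7 over day 4, prior count 2) of each tested member of 4 lists, 1 panel per list and 1 column per replicate pair, with the median as a bar. Cholesterol and stress response medians lie above 0 in every pair and cell cycle and matrix medians below 0, with the stress response median at 1.62 in replicate 1 against 0.08 and 0.33 in the others.

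Transport genes of astrocytes stood higher in replicate 1 and close to level in the other pairs. Of 20 tested genes for transmitter uptake, potassium, water and gap junctions 15 were fitted higher, 5 in 3 of 3 pairs, with a median of 0.41 and pair medians of 1.36, 0.05 and 0.04. Without replicate 1 the median was -0.06, the opposite direction. Slc1a3, the glutamate transporter GLAST, stood at 342, 357 and 1013 CPM at day 4 and 797, 561 and 1155 CPM at day 7, a log2 fold change of 0.70 (SE 0.24). Kcnj10, the potassium channel Kir4.1, stood at 278, 467 and 1707 CPM at day 4 and 666, 873 and 1778 CPM at day 7, a log2 fold change of 0.80 (SE 0.36). Slc38a1, a glutamine transporter chosen after its values were seen, stood at 57.6, 169 and 211 CPM at day 4 and 152, 181 and 276 CPM at day 7, a log2 fold change of 0.62 (SE 0.24). These 3 were higher in 3 of 3 pairs. Others of the list, also chosen after their values were seen, turned between pairs. Aqp4, the water channel of astrocyte endfeet, stood at 198, 840.1 and 1490.1 CPM at day 4 and 516, 460.4 and 586 CPM at day 7. Slc1a2, the glutamate transporter GLT-1, stood at 38.3, 324 and 338 CPM at day 4 and 124, 98.9 and 153 CPM at day 7. Both were higher in replicate 1 and lower in replicates 2 and 3.

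The broader astrocyte identity list had 20 of 30 fitted higher and 3 in 3 of 3 pairs, with a median of 0.10 and pair medians of 0.45, -0.10 and 0.19. Vim, vimentin, stood at 2845, 4149 and 3331 CPM at day 4 and 1856, 3803 and 4428 CPM at day 7. Nes, nestin, stood at 1548, 577 and 864 CPM at day 4 and 969, 1108 and 1459 CPM at day 7. These intermediate filaments were lower in replicate 1, and Nes was higher in the other two pairs. Sox9, a transcription factor of the lineage chosen after its values were seen, stood at 76.5, 120.4 and 218 CPM at day 4 and 168, 168 and 259.6 CPM at day 7, a log2 fold change of 0.61 (SE 0.22), higher in 3 of 3 pairs. Gfap, the filament protein used to mark astrocytes, stood at 84.1, 688 and 1718 CPM at day 4 and 218, 576 and 2129 CPM at day 7. Within a day Gfap differed far more between replicates than it did between the days.

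Microglia and macrophages, which share many interferon, chemokine and protease genes with reactive astrocytes, were, among 6 other cell types, the one with the largest ratio of the highest to the lowest summed marker level over the 6 libraries. Their 20 markers summed to 68.5, 239 and 9.14 CPM at day 4 and 8.15, 299 and 16.2 CPM at day 7, highest in replicate 2 at both days, and each had reads in at least 1 library. Of the 20, 15 were fitted lower, with a median of -0.87 and pair medians of -2.74, -0.16 and 0.00. Lyz2, lysozyme, stood at 33.8, 119 and 3.33 CPM at day 4 and 2.31, 208 and 8.11 CPM at day 7. Cd68, a lysosomal protein of phagocytes, stood at 6.34, 5.40 and 1.86 CPM at day 4 and 3.96, 5.45 and 4.49 CPM at day 7. Lyz2 was lower in replicate 1 and higher in the other two pairs, and without replicate 1 the list median was -0.35. The cytokine Il1b, made by activated microglia and chosen after its values were seen, stood at 1.18, 12.7 and 0.733 CPM at day 4 and 0.144, 0.539 and 0.0345 CPM at day 7, lower in 3 of 3 pairs. Its day 7 values in replicates 1 and 3 lay below the floor of 3 reads. In the chemokine and cytokine list 16 of 21 tested genes were instead fitted higher. The part of microglia and macrophages in the lists that follow was not tested.

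Several lists had opposite directions in different replicates. Interferon response genes had 25, 0 and 25 of 29 higher in the 3 pairs, with pair medians of 0.53, -1.89 and 0.66 and a fitted median of 0.08. That median was -0.31, 0.60 and -0.21 without replicates 1, 2 and 3 in turn. Ifit3, an interferon-induced antiviral protein, stood at 682, 376 and 191 CPM at day 4 and 872, 101 and 378 CPM at day 7. It was lower at day 7 in replicate 2 and higher in the other two pairs. Chemokines and cytokines had the same signs, with 18, 5 and 17 of 21 higher and pair medians of 1.57, -1.79 and 0.45, and a fitted median of 0.57, which was -0.21 without replicate 1. Csf1, a growth factor of macrophages, stood at 1754, 2624 and 654 CPM at day 4 and 2149.7, 784 and 1107 CPM at day 7. Vcam1, an adhesion molecule for leukocytes, stood at 689.8, 1873 and 362 CPM at day 4 and 1564, 258 and 493 CPM at day 7. Again only replicate 2 was lower at day 7.

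Gene lists used to grade reactive astrocytes differed between replicates too. The A1 list had pair medians of 1.14, -2.06 and 0.08 and a fitted median of -0.06. C3, complement component 3, stood at 683, 9364 and 5165 CPM at day 4 and 7484, 700.2 and 6063 CPM at day 7. H2-D1, a class I histocompatibility antigen, stood at 330.0, 1050.4 and 147 CPM at day 4 and 529, 190.0 and 187 CPM at day 7. Both were higher in replicates 1 and 3 and lower in replicate 2. The pan-reactive list had pair medians of 1.00, -1.02 and -0.10 and a fitted median of -0.08, with Vim and Cp, both given above, as its most abundant members. The A2 list had pair medians of -0.35, -0.26 and 0.20 and a fitted median of -0.02. Stat3, a transcription factor of cytokine signalling, stood at 264, 568 and 317 CPM at day 4 and 459, 295 and 385 CPM at day 7. Cd109, a surface protein that binds TGF-beta, stood at 98.0, 119 and 233 CPM at day 4 and 105, 109 and 184 CPM at day 7. Stat3 followed the order of C3, and Cd109 was lower in replicates 2 and 3. Motile cilia and ependymal genes had pair medians of 1.11, -1.10 and -0.03 and a fitted median of 0.07. Foxj1, the master regulator of motile cilia, stood at 179.7, 361 and 260.0 CPM at day 4 and 225, 152 and 326 CPM at day 7. Dnah9, a dynein heavy chain, stood at 64.6, 128 and 259 CPM at day 4 and 186, 59.8 and 191 CPM at day 7. Both were lower in replicate 2, and Dnah9 also in replicate 3.

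Mitochondrially encoded messages followed another order of replicates. They were higher in 4, 13 and 0 of 13 genes in the 3 pairs, with pair medians of -0.34, 1.64 and -0.92 and a fitted median of 0.11. mt-Co1, a subunit of cytochrome oxidase, stood at 4031, 2778 and 6335 CPM at day 4 and 4863, 4668 and 3894 CPM at day 7. mt-Nd5, a subunit of complex I, stood at 744, 639.7 and 1532 CPM at day 4 and 481, 2359 and 1115 CPM at day 7. Nuclear copies of mitochondrial DNA share sequence with these genes, so the counts are uncertain. The mitochondrial ribosomal RNA mt-Rnr2 did not follow them, since its share was higher at day 7 in 3 of 3 pairs.

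Immediate early and serum response genes differed by replicate as well, with 4, 14 and 21 of 23 higher pair medians of -0.90, 0.13 and 0.84 and a fitted median of 0.09. Ccn1, a matricellular YAP target, stood at 726, 729 and 329 CPM at day 4 and 543, 797 and 588 CPM at day 7. Btg2, an antiproliferative early gene, stood at 243, 453 and 177 CPM at day 4 and 372, 305 and 372 CPM at day 7. The TGF-beta, YAP and contractile list had pair medians of -1.58, -0.09 and 0.37, a fitted median of -0.33 and 17 of 21 fitted lower, with no member of the same direction in 3 pairs. Without replicate 1, 11 of 21 were fitted lower and the median was -0.00. Flna, filamin A, stood at 1938, 1963 and 949 CPM at day 4 and 1143, 1402 and 1223 CPM at day 7, lower in replicates 1 and 2 and higher in replicate 3, as was Thbs1 above. The FGF and ERK feedback list had pair medians of -0.67, 0.92 and 0.47 and a fitted median of 0.34. That median was 0.62 without replicate 1, 0.01 without replicate 2 and 0.14 without the replicate block. The list includes Fgfr1 at 356 to 551 CPM at day 4 and 469 to 600.3 CPM at day 7 and Fgfr2 at 104 to 282 CPM at day 4 and 168 to 264 CPM at day 7, both receptors for fibroblast growth factors.

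**Figure D3:**
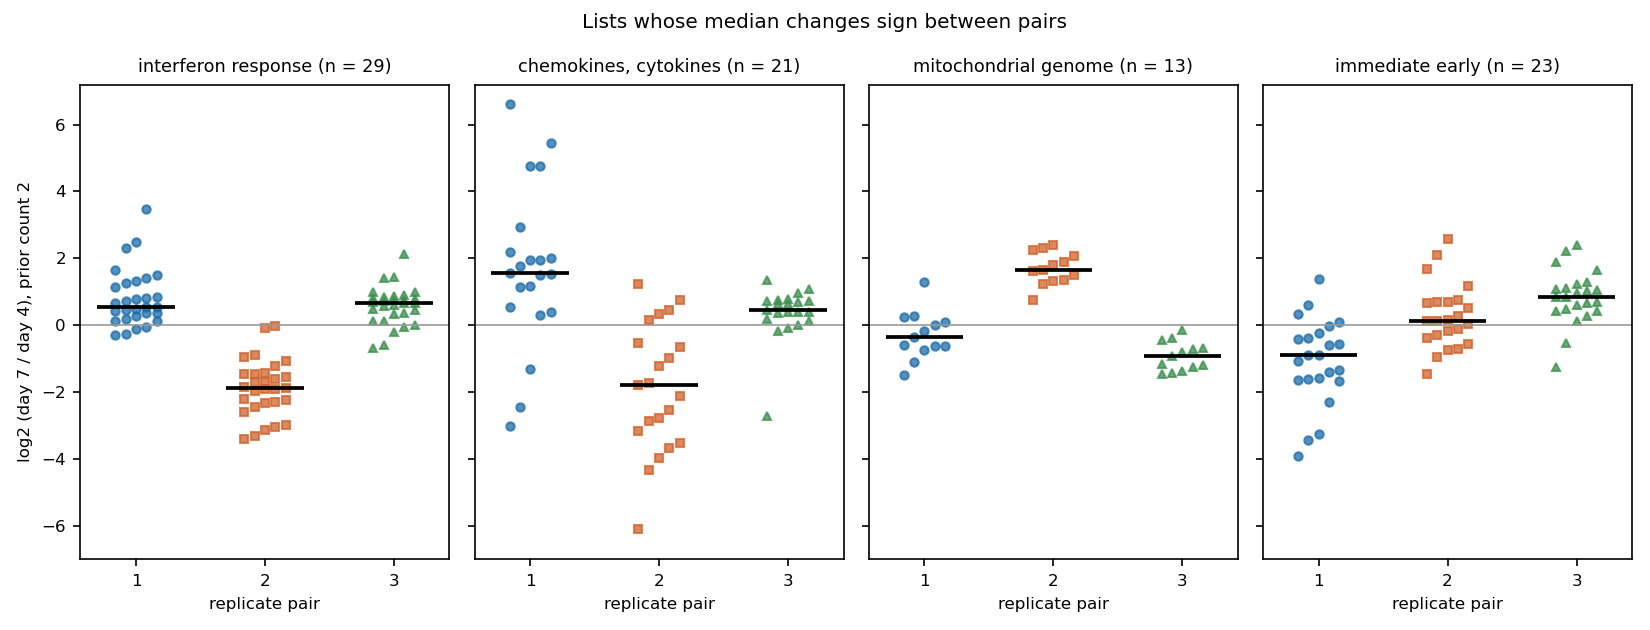
Pair differences in log2 (day 7 over day 4, prior count 2) of each tested member of 4 lists whose median changed sign between pairs, with the median as a bar. Interferon and chemokine medians are below 0 only in replicate 2 (-1.89 and -1.79), the mitochondrial median is above 0 only in replicate 2 (1.64), and the immediate early median is below 0 only in replicate 1 (-0.90).

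Other signalling lists had fitted medians of -0.10 to 0.16, against 0.03 over all genes. Pair medians kept 1 sign only for insulin, IGF and FoxO target genes (0.01, 0.20 and 0.30) and for the glucocorticoid and progesterone list (0.20, 0.22 and 0.56). The Notch list had 12 of 17 fitted higher with a median of 0.14. Its receptors Notch1, at 436 to 572 CPM at day 4 and 474 to 638 CPM at day 7, and Notch2, at 485 to 937 CPM at day 4 and 827 to 933 CPM at day 7, overlapped between the days. The Hedgehog list had a median of 0.03, with the receptor Ptch1 at 118 to 198 CPM and the co-receptor Cdon at 75.4 to 184 CPM over the 6 libraries. In the Wnt list, with a median of -0.08, the secreted inhibitor Sfrp1 stood at 477 to 1755 CPM at day 4 and 478 to 1162 CPM at day 7 and its fellow inhibitor Dkk3 at 62.2 to 135 CPM at day 4 and 26.6 to 80.0 CPM at day 7. Its receptor Fzd1, chosen after its values were seen, stood at 52.4, 67.5 and 30.7 CPM at day 4 and 82.2, 93.7 and 40.7 CPM at day 7, a log2 fold change of 0.51 (SE 0.22), higher in 3 of 3 pairs. The BMP and Id list had a median of -0.10, with the receptor Bmpr1a at 184 to 409 CPM and the ligand Bmp6 at 110.3 to 357 CPM. Insulin, IGF and FoxO target genes had 16 of 20 fitted higher and a median of 0.16. Igfbp5, a secreted binding protein of insulin-like growth factors, stood at 8325, 9006 and 17727 CPM at day 4 and 8029, 15924 and 24159 CPM at day 7, and its relative Igfbp2 at 1608, 1322 and 672 CPM at day 4 and 780.2, 1894 and 1058 CPM at day 7. Both were higher in replicates 2 and 3 and lower in replicate 1. The glucocorticoid and progesterone list had a median of 0.12, with the cycle inhibitor Cdkn1a at 363 to 611 CPM at day 4 and 435 to 631 CPM at day 7 and the glucocorticoid receptor Nr3c1 at 191 to 220.5 CPM at day 4 and 121 to 302 CPM at day 7. Nr3c1 spread more widely at day 7 than at day 4. The circadian list had a median of 0.13, with Tef at 99.1 to 163 CPM at day 4 and 117 to 173 CPM at day 7 and Bhlhe40 at 90.6 to 120.5 CPM at day 4 and 117 to 145 CPM at day 7, both clock output factors.

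Housekeeping lists had small fitted medians, and the pairs agreed in sign only for the hypoxia list. Lysosome and autophagy genes had 21 of 28 fitted higher, 8 in 3 of 3 pairs, with a median of 0.10 and pair medians of 0.22, -0.27 and 0.44. The lysosomal protease Ctsb stood at 1066 to 2009 CPM at day 4 and 849.7 to 1907 CPM at day 7 and its fellow protease Ctsd at 764 to 1322 CPM at day 4 and 932 to 1083 CPM at day 7, both overlapping between the days. Npc1, which exports cholesterol from lysosomes and was chosen after its values were seen, stood at 68.8, 101 and 129 CPM at day 4 and 128, 118 and 165 CPM at day 7, a log2 fold change of 0.48 (SE 0.21), higher in 3 of 3 pairs. Glycolysis, lactate and glycogen genes had a median of 0.09 and pair medians of -0.00, -0.26 and 0.33, with lactate dehydrogenase Ldhb at 349.7 to 836 CPM at day 4 and 309 to 449.9 CPM at day 7 and the glycogen phosphorylase Pygb at 160.0 to 520.2 CPM at day 4 and 226 to 688 CPM at day 7. The 2 enzymes overlapped between the days. Hypoxia response genes, with pair medians of 0.24, 0.04 and 0.31, had a median of 0.07, with the collagen hydroxylase P4ha1 at 202 to 441 CPM at day 4 and 364 to 398 CPM at day 7 and Ndrg1 at 91.3 to 471 CPM at day 4 and 179 to 202 CPM at day 7. Their day 7 libraries lay within the range of day 4. Cytosolic ribosomal proteins, which share sequence with many pseudogenes, had 27 of 37 fitted higher, a median of 0.16 and pair medians of -0.15, 0.01 and 0.34, with Rpl4 at 157 to 195 CPM at day 4 and 184 to 202 CPM at day 7 and Rplp0 at 77.9 to 175 CPM at day 4 and 67.3 to 113 CPM at day 7. Without replicate 3 the medians were -0.02 for the lysosome list, -0.11 for glycolysis and -0.04 for ribosomal proteins.

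Of the 24 neuron markers, Nefl, Slc17a6 and Gad2 had no read, the sum was 279 to 581 CPM at day 4 and 228 to 397 CPM at day 7, and 13 of 19 tested were fitted lower, with a median of -0.08. Map2, a microtubule-associated protein, ranged over 82.8 to 226 CPM, and Stmn2, a stathmin, over 55.5 to 362 CPM. Oligodendrocyte lineage markers summed to 211 to 337 CPM at day 4 and 167 to 550.1 CPM at day 7, with Mag, Mobp and Bcas1 without a read and a median of 0.06. The lineage factor Olig1 stood at 137, 94.8 and 179 CPM at day 4 and 82.2, 387 and 270.3 CPM at day 7. Its relative Olig2 stood at 102, 20.4 and 52.4 CPM at day 4 and 36.7, 95.9 and 51.8 CPM at day 7. Both were higher at day 7 in replicate 2 and lower in replicate 1. Endothelial and mural markers summed to 649.7 to 1229 CPM at day 4 and 714 to 1028 CPM at day 7, with Cldn5 and Kcnj8 without a read, 10 of 11 tested fitted lower and a median of -0.29. Most of that sum came from Slco1a4, an organic anion transporter also found in astrocytes, at 394 to 931 CPM at day 4 and 475 to 791 CPM at day 7, and Notch3, a receptor, at 161 to 232 CPM at day 4 and 136 to 161 CPM at day 7. Choroid plexus markers summed to 14.1 to 15.8 CPM at day 4 and 7.88 to 12.5 CPM at day 7, with Kl without a read, 5 of 8 tested fitted lower and a median of -0.28, and with Kcnj13, a potassium channel, at 2.76 to 7.98 CPM and Folr1, a folate receptor, at 1.25 to 4.08 CPM.

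**Figure D4:**
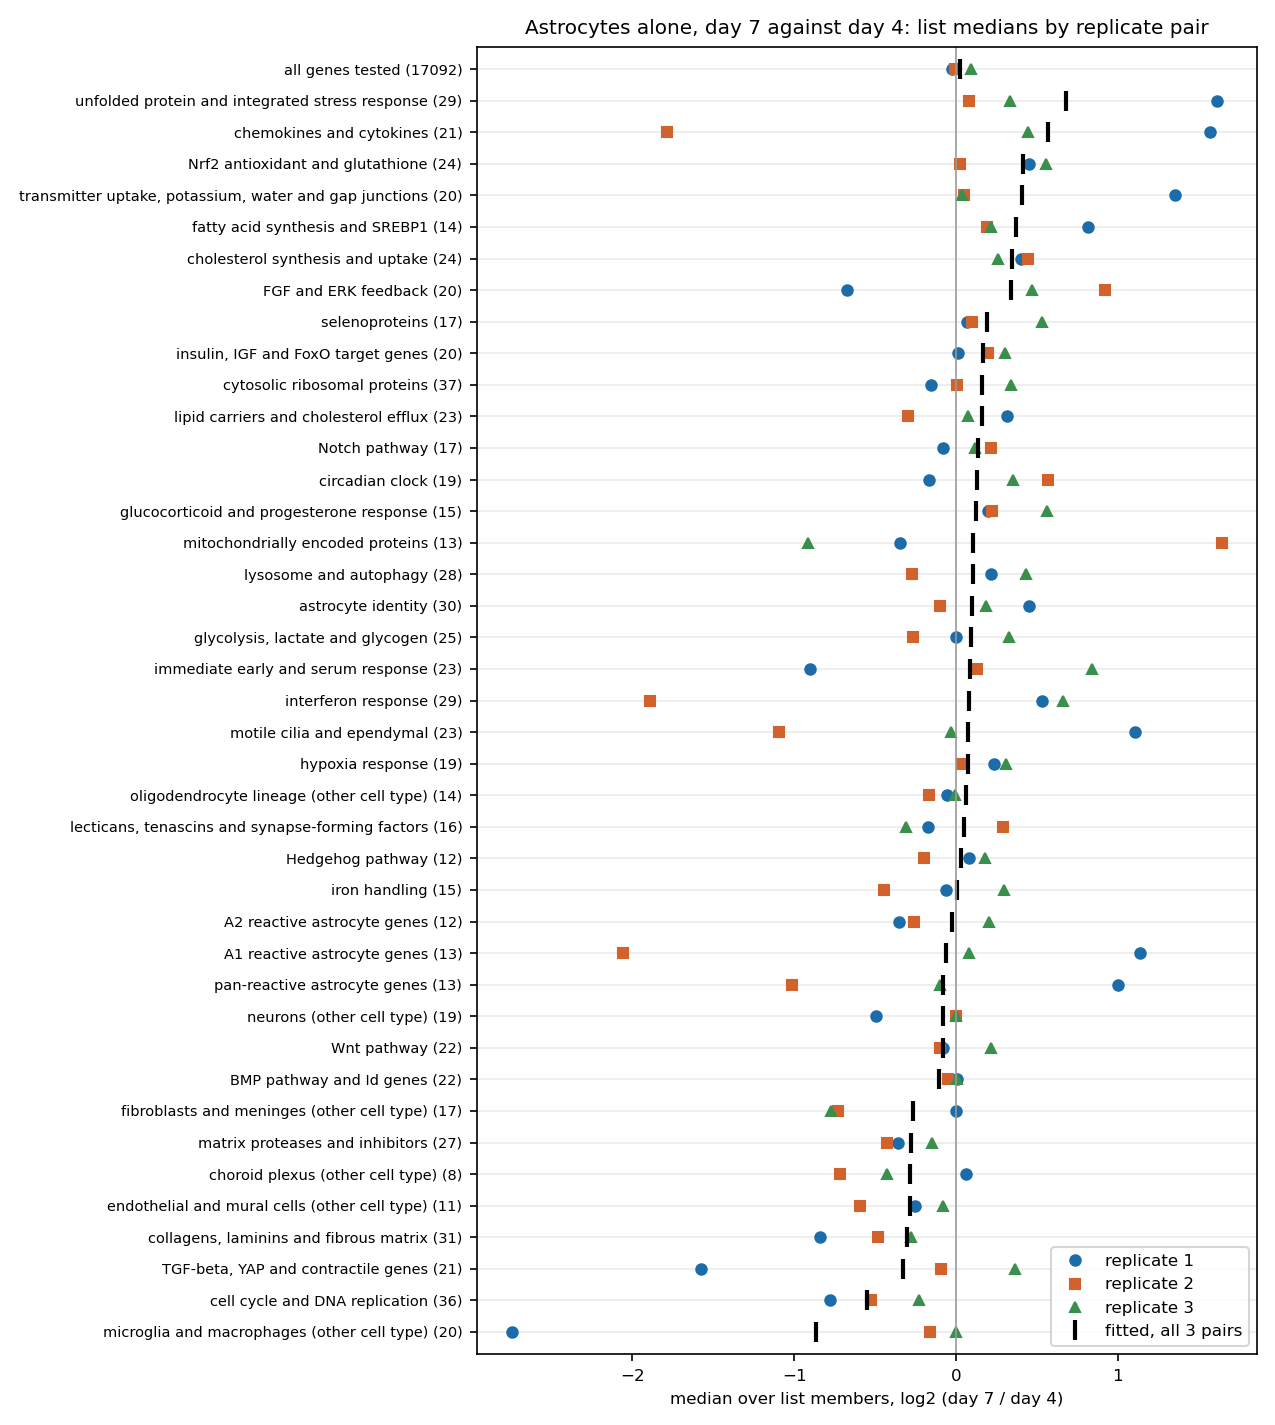
Median log2 (day 7 over day 4) over the tested members of each of 40 lists and over all genes tested, with the number of members in parentheses. Coloured points are the 3 replicate pairs and the black tick is the fitted value, and the pairs of the interferon, A1 and mitochondrial lists lie on both sides of 0 while those of the cholesterol and cell cycle lists lie on the same side.

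The change from day 4 to day 7 was then set against that of astrocytes cultured with neurons, as the difference between the changes in the same fit, with co-cultures of replicates 1 to 3 at day 4 and of replicates 2 and 3 at day 7. In the co-culture library of replicate 1 at day 7 a single gene took more than 30% of the reads, and it was left out. The test called 15 genes (0.0878% of those tested). All 15 belonged to 23 genes that had no read in both replicate 2 libraries of astrocytes alone and at least 50 reads in each of the other 4, and none of the 15 had a read in either day 7 co-culture library of the fit. The 4 with the smallest p were Ntrk2, the BDNF receptor, Hnrnpk, an RNA-binding protein, Tut7, a uridylyl transferase, and Gas1, a Hedgehog co-receptor. In replicates 1 and 3 of astrocytes alone Ntrk2 stood at 446 and 1813 CPM at day 4 and 1334 and 2483 CPM at day 7. Hnrnpk stood there at 93.2 and 92.4 CPM and then at 123 and 91.1 CPM, so that a gene used by nearly every cell was listed at 0 in replicate 2. In RefSeq gene order these 4 lie in a run of 13 neighbouring genes with no read in 8 of the 18 libraries. The co-culture library of replicate 1 at day 7, left out of the fit, held 5804 reads on this run. With the 23 genes left out, a choice made after seeing the data, edgeR called 0 genes, and it also called 0 without the replicate block.

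Outside the 23, the smallest adjusted p of the difference was 0.386 in edgeR, for Sema3c, at -1.45 (SE 0.33), and 240 genes had an unadjusted p under 0.05. Co-cultured astrocytes of replicates 2 and 3 held Sema3c at 263 and 221 CPM at day 4 and 446 and 210.4 CPM at day 7, not lower in replicate 2. Vcan there stood at 118 and 61.8 CPM at day 4 and 129 and 40.1 CPM at day 7, and the difference of its changes was -1.51 (SE 0.41) with an adjusted p of 1 in edgeR. Bmp1, at 206 and 169 CPM at day 4 and 145 and 80.9 CPM at day 7, was lower in both co-culture pairs too, and its difference was -0.11 (SE 0.40). Insig1 stood at 53.9 and 245 CPM at day 4 and 59.3 and 173 CPM at day 7 in co-culture, with a difference of 1.26 (SE 0.42). Cholesterol genes had co-culture pair medians of 0.18 and 0.07 and cell cycle genes of -1.57 and 0.18 in replicates 2 and 3. The stress response list had -0.01 and 0.70, the Nrf2 list 0.51 and 0.68 and the fibrous matrix list -0.19 and -1.03. No list was shown to differ between the kinds of culture, because no difference of a list median was tested.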

How the data were processed

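RNA of sorted mouse astrocytes was made into libraries with SMARTer low-input kits after ribosomal RNA depletion and sequenced on an Illumina HiSeq. The deposited table holds a whole-number read count for each gene. Subread, featureCounts and the mouse build mm9 were used, per the submitters' processing notes, with versions and strand setting not given in the sources used here. Without strand, reads of overlapping genes on opposite strands cannot be told apart. Columns were matched to samples by title, and 17 further columns of per-sample values were not used. Gene IDs were paired with RefSeq symbols, and 2094 of 26301 IDs had none. Each of the 6 libraries held 13950111 to 31226925 reads.

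Counts were fitted with edgeR 4.0.16 (R 4.3.3): 16 libraries sharing a spread estimate, TMM scaling, filterByExpr, terms for group and replicate, quasi-likelihood F test, Benjamini-Hochberg adjusted p under 0.05. The co-culture library of replicate 1 at day 7 and the library of astrocytes alone of replicate 1 at day 2 were left out, since 1 gene took over 30% of their reads. The labels give a replicate number a shared date. Deviations from the group means had correlations of -0.01 to 0.34 between same-numbered libraries (3 pairs) and -0.33 to 0.13 between others (6 pairs). These ranges overlap. They are also tied to each other, because deviations cancel out within a group, so they do not test the pairing. No 2 libraries of a group agreed within sampling noise (chi-square per degree of freedom 108 to 280, 14 pairs). Named genes averaged a log2 CPM of 3 or more, with 1 direction in all 3 pairs, and were the 12 of smallest p each way, then the 2 members of highest mean level in each of 40 lists and the 4 with the smallest p for the difference to co-culture; some of these are not reported here. Members and lists were chosen with earlier results of these data known. Alternatives included DESeq2 1.42.0, limma-voom 3.58.1, other scalings and filters, and each replicate or library left out. The procedure was tested on simulated data with 50 genes changed at each of 4 sizes, all drawn from genes with a mean fitted count above 50. Recovery of genes with fewer reads was not tested. The simulated counts also left out the gene-by-gene part of the spread that the quasi-likelihood test estimates. It recovered 5 of 50 at 2-fold, 38 at 4-fold, 46 at 8-fold and 50 at 16-fold, with 2 false calls among 141. Most changes of 2-fold would thus be missed in the edgeR test.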

Additional observations from a re-analysis of the deposited data

Results flagged for a closer look

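Fatty acid synthesis genes had a fitted median log2 difference of 0.37 between day 7 and day 4 in astrocytes alone, with pair medians of 0.82, 0.19 and 0.21, all above 0. In co-culture the same list had pair medians of -0.07 and -0.22 in replicates 2 and 3, both below 0. Genes for transmitter uptake, potassium, water and gap junctions had a fitted median of 0.41 and pair medians of 1.36, 0.05 and 0.04 in astrocytes alone, against -0.01 and -0.35 in the co-culture pairs. Both lists stand here because every pair of one kind of culture lay on the opposite side of 0 from every pair of the other. The difference was not tested for either list, and without replicate 1 the uptake list had a median of -0.06 in astrocytes alone.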

How the results depend on the processing

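The count of 0 genes called between day 7 and day 4 in edgeR was also found without the replicate block (145 genes at an unadjusted p under 0.05), with other libraries in the fit, under median-ratio and upper-quartile scaling, under both filters, in the robust fit, at an adjusted p under 0.1, with ribosomal RNA genes removed, and without each replicate or library. DESeq2 called 12. The 15 genes called for the difference to co-culture became 0 without the replicate block, 0 with 18 libraries and the replicate block, 0 with 18 libraries and no replicate block, 0 in limma-voom, 10 in DESeq2 (7 higher and 3 lower, against 15 higher in edgeR), and 0 to 45 when a replicate was left out. They were 4 without replicate 1, 45 without replicate 2, where 1 co-culture library remained at day 7 and was assumed to vary like the other groups, and 0 without replicate 3. With the genes without reads in replicate 2 left out, chosen after seeing the data, 0 were called. The cause was not tested beyond the last setting. Fits with astrocytes alone give no value for this difference. Of 1307 alternative values over 57 named genes, 1300 kept their direction and side of the threshold, and 5 passed it, in DESeq2 only (Pla2g7, Scd2, Vcan, Sema3c and Anxa1). That count is no measure of stability, and the 57 are not all the genes named above. The 12 lower and 12 higher genes were chosen for 1 direction in all 3 pairs, so leaving out a replicate could hardly turn them. With adjusted p far above the threshold in edgeR, their side of it was also nearly fixed. Hnrnpk reversed, to -0.0165 without replicate 1 (up to 0.412 with another replicate left out) and to -0.00696 without replicate 1 at day 7 of astrocytes alone. Under median-ratio and upper-quartile scaling all genes shifted in the median by -0.04 and -0.02, with 48.8% and 50.3% of genes higher. List medians kept their sign under both, except iron handling (-0.03 and -0.01) and, under median-ratio scaling, Hedgehog (-0.01). Without the replicate block the median turned for the immediate early, interferon, mitochondrial, lectican, lipid carrier, motile cilia, oligodendrocyte and Hedgehog lists (-0.10, -0.07, -0.10, -0.20, -0.03, -0.05, -0.04 and -0.02), and was 0.07 for chemokines. Fitting only the 6 compared libraries turned the interferon, lectican, motile cilia and iron medians (-0.19, -0.07, -0.07 and -0.03). The chemokine median was then 0.17. Depth limits genes near 3 reads.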

Other observations

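Below the level set for naming, 3 genes of inflammatory signalling were lower at day 7 in 3 of 3 pairs, all chosen after their values were seen. Il1a, an alarm cytokine, stood at 1.60, 6.14 and 0.169 CPM at day 4 and 0, 0.741 and 0 CPM at day 7. Ccl4, a chemokine for monocytes, stood at 1.52, 4.49 and 0.226 CPM at day 4 and 0, 0.741 and 0 CPM at day 7. Clec4e, a receptor for microbial and damaged-cell glycolipids, stood at 0.532, 4.54 and 0.169 CPM at day 4 and 0, 0.741 and 0 CPM at day 7. Replicate 2 at day 4 was the highest library for each, and replicates 1 and 3 had no read at day 7. In replicate 3 at day 4 Il1a and Clec4e stood at the floor of 3 reads (0.169 CPM) and Ccl4 just above it. The lower direction of that pair thus rests on very few reads. Of the 21 tested genes of the chemokine and cytokine list, 16 were fitted higher. Mmp12, the macrophage elastase and also chosen after its values were seen, stood at 6.27, 7.75 and 0.226 CPM at day 4 and 0, 6.19 and 0.0690 CPM at day 7. The summed microglia markers were at 68.5, 239 and 9.14 CPM at day 4 and 8.15, 299 and 16.2 CPM at day 7, and their part in these values was not tested.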
